A study of Mus musculus with 9 samples.

Results

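The complement genes C5ar1, C3, C4b, Serping1, Cd55, Cd59a, Cfb and C1ra, 8 of the 52183 genes in the table, were followed in RNA from endothelial cells of mouse bone marrow. They were taken by gene symbol, and each matched 1 row. The 9 libraries fell into 3 groups of 3: aged mice of 18 months labelled as Thbs1 knockouts, aged control mice of 18 months, and young control mice of 3 months. Thbs1 encodes thrombospondin-1, a secreted matrix protein, and the question posed by the design was how its loss alters marrow endothelium with age. The labels name neither the kind of Thbs1 allele nor the strain or sex, nor do they tell whether every library is a different mouse, so the p-values measure the spread between libraries, which may be technical. Endothelium was stained in the living animal with injected antibody against VE-cadherin, a protein of endothelial junctions, and cells of the long bones were then sorted for a low-input SMART-Seq library preparation.

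Values are FPKM, fragments scaled to gene length and library depth. Depth, estimated from the steps between low values, was 21990000 to 30280000 fragments a library. All 6 endothelial markers examined (Cdh5, Pecam1, Kdr, Tek, Emcn and Stab2) were abundant, and their summed level was 1130.7 to 1305.5 FPKM in the libraries labelled knockout, 1059.3 to 1185.1 FPKM in aged controls and 1270.6 to 1322.9 FPKM in young controls. The targeted gene went against its label: Thbs1 was at 25.63, 19.45 and 19.84 FPKM in the libraries with the knockout label, against 0.67, 0.82 and 1.17 FPKM in aged controls and 4.55, 3.89 and 4.18 FPKM in young controls. The first group is therefore called the libraries labelled knockout throughout, and every direction that rests on it carries that limit. In bulk RNA, fewer cells of a type and less RNA per cell cannot be told apart.

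Complement is a cascade of plasma and cell-surface proteins that marks and lyses targets. Its classical arm starts with C1q and the proteases C1r and C1s and passes through C4. Its alternative arm is amplified by factor B, and both arms meet at C3. Cleavage of C5 releases C5a, a small inflammatory peptide read by the receptor C5aR1. Endothelial cells face plasma complement continuously and carry membrane inhibitors such as CD55, which speeds the decay of C3 convertases, and CD59, which blocks the membrane attack complex.

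The members spanned a wide range of levels. Averaged over the 9 libraries, C5ar1 was highest at 86.9 FPKM, followed by Cd55, Cd59a, C1ra and Serping1, while Cfb, C3 and C4b lay near 1 FPKM. Testing used limma on log2(FPKM + 1) over the 11796 genes that averaged at least 1 FPKM, with Benjamini-Hochberg adjustment and a threshold of 0.05, and fold changes are on that scale, which understates the change of low genes. Of the members, 6 passed the filter, and C3 and C4b, at means of 0.947 and 0.946 FPKM, fell just below it.

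**Figure D1:**
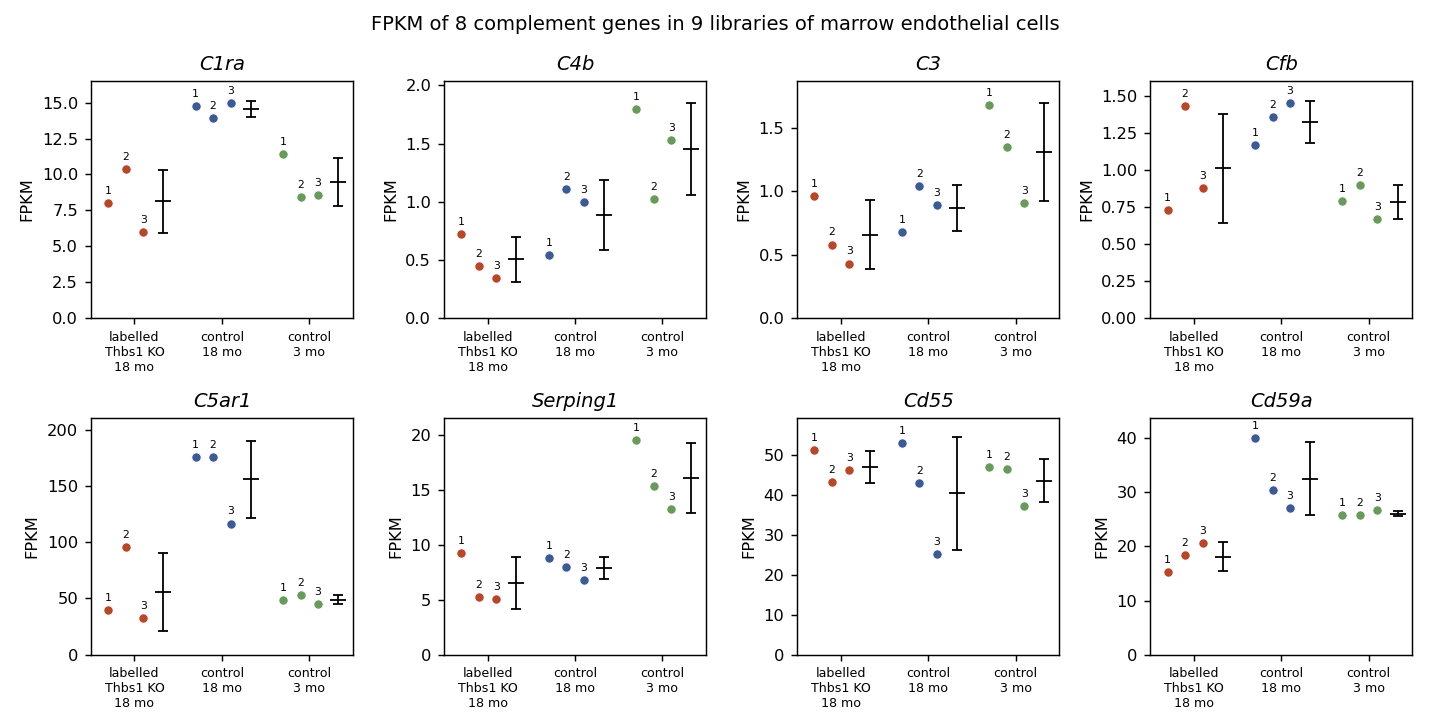
FPKM of the 8 complement genes in each library (points, numbered by replicate), with the mean and SD of each group of 3 to the right (dash and bars). The aged controls lie above both other groups for C5ar1, C1ra and Cd59a, and the young controls lie above both other groups for Serping1.

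C5ar1 (ENSMUSG00000049130, chr7:16246743-16259540, minus strand, GRCm38) encodes the receptor for C5a, a G protein-coupled receptor best known on neutrophils and monocytes. Its levels were 39.60, 95.30 and 32.23 FPKM in the libraries labelled knockout, 175.60, 176.01 and 116.58 FPKM in aged controls and 48.22, 53.32 and 45.26 FPKM in young controls. Every aged control exceeded every library of the other groups, and the libraries labelled knockout had their own highest value in replicate 2. Group means were thus 55.7 ± 34.5 FPKM in the libraries labelled knockout, 156.1 ± 34.2 FPKM in aged controls and 48.9 ± 4.08 FPKM in young controls (SD, n = 3 each).

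C5ar1 fell in the libraries labelled knockout relative to aged controls, with a log2 fold change of -1.61 (95% interval -2.36 to -0.856; limma adjusted p = 0.0281) and a ratio of means of 0.357. It rose in aged controls relative to young controls, by 1.63 on the log2 scale (95% interval 0.880 to 2.38; limma adjusted p = 0.0381) and a ratio of means of 3.19. Between the libraries labelled knockout and young controls the log2 difference was 0.02 (95% interval -0.727 to 0.775; limma adjusted p = 0.991), an interval that leaves room for changes of either sign. The first and second comparisons share the aged controls, so a high value there enters both with opposite sign.

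Both C5ar1 calls depended on which libraries were fitted. The fall in the libraries labelled knockout held without replicate 2 of that group (limma adjusted p = 0.000892) or without aged control 3 (adjusted p = 0.0372), and was lost in each of the other 7 fits that left out 1 library (adjusted p = 0.0513 to 0.119). The rise with age held without any 1 library labelled knockout (limma adjusted p = 0.00303 to 0.0437). It was lost in each of the 6 fits without an aged or young control (adjusted p = 0.0578 to 0.143). A library outside the compared groups enters only the shared spread and the adjustment. Leaving it out moved the adjusted p but not the log2 fold change, here and for the genes below. The rise stayed at 1.63 without any 1 library labelled knockout. The fall stayed at -1.61 without any 1 young control, where the limma adjusted p was 0.0513 to 0.0532.

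C5ar2, the gene of the second C5a receptor, is 2588 bases from C5ar1 on chromosome 7. Its levels were 45.20, 42.20 and 37.43 FPKM in the libraries labelled knockout, 33.94, 51.08 and 37.02 FPKM in aged controls and 36.69, 39.86 and 37.66 FPKM in young controls. The groups overlapped, and no comparison passed the test (limma adjusted p = 0.866 for the libraries labelled knockout against aged controls and 0.777 for aged against young controls). The C5ar1 to C5ar2 ratio within a library was 0.876, 2.26 and 0.861 in the libraries labelled knockout, 5.17, 3.45 and 3.15 in aged controls and 1.31, 1.34 and 1.20 in young controls. All 3 aged controls had a higher ratio than every other library.

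**Figure D2:**
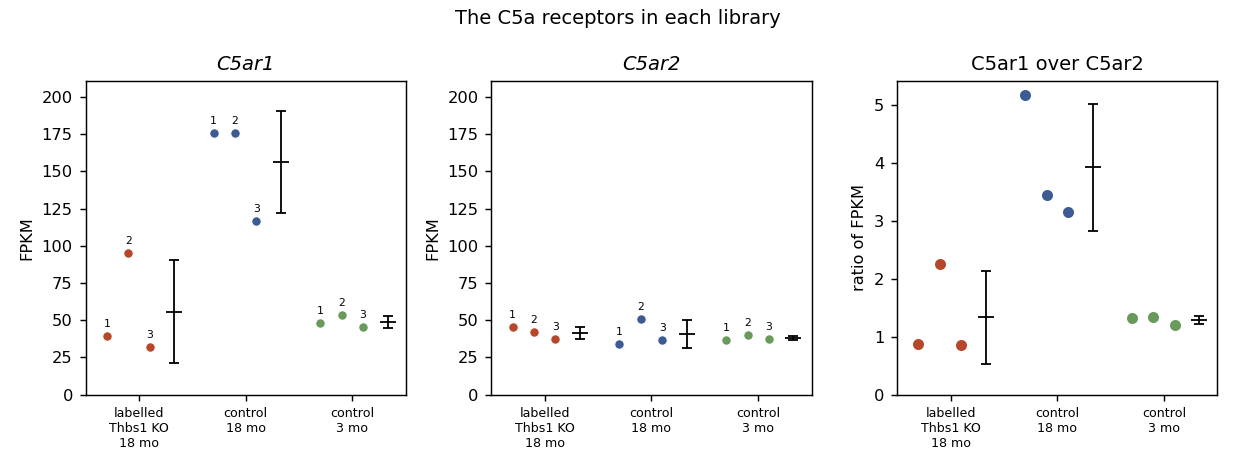
FPKM of C5ar1 and C5ar2 and their ratio in each library (points), with the mean and SD of each group of 3. The ratio was 3.15 to 5.17 in the aged controls and at most 2.26 elsewhere, while C5ar2 overlapped between groups.

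C1ra (ENSMUSG00000055172, chr6:124512405-124523443, plus strand) encodes the mouse C1r protease, which is activated in the C1 complex and then cleaves C1s. Its levels were 8.01, 10.40 and 5.99 FPKM in the libraries labelled knockout, 14.75, 13.93 and 15.00 FPKM in aged controls and 11.41, 8.42 and 8.58 FPKM in young controls. Again all 3 aged controls exceeded every other library, with a narrow spread. C1ra fell in the libraries labelled knockout relative to aged controls, by a log2 fold change of -0.80 (95% interval -1.18 to -0.410; limma adjusted p = 0.0324) and a ratio of means of 0.559. The call held without replicate 2 of the libraries labelled knockout (limma adjusted p = 0.00894) or without young control 1 (adjusted p = 0.0421) and was lost in the other 7 such fits (adjusted p = 0.0545 to 0.11). Aged against young controls gave a log2 fold change of 0.58 that missed the threshold (limma adjusted p = 0.0778), although the groups did not overlap. It passed without replicate 2 of the libraries labelled knockout (limma adjusted p = 0.0387), a library outside this comparison, with the log2 fold change still 0.58.

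Cd59a (ENSMUSG00000032679, chr2:104095801-104115354, plus strand) encodes the membrane inhibitor of the attack complex. Levels of 15.30, 18.36 and 20.64 FPKM were found in the libraries labelled knockout, 40.07, 30.36 and 27.16 FPKM in aged controls and 25.76, 25.75 and 26.66 FPKM in young controls. The 3 libraries labelled knockout were below the other 6, and aged control 1 was the highest. Cd59a fell in the libraries labelled knockout relative to aged controls, with a log2 fold change of -0.80 (95% interval -1.13 to -0.473; limma adjusted p = 0.0187) and a ratio of means of 0.556. Of the 9 fits that left out 1 library, 8 kept the call, and it was lost without replicate 1 of the libraries labelled knockout (limma adjusted p = 0.0746). Against young controls the libraries labelled knockout differed by -0.51 on the log2 scale without passing (limma adjusted p = 0.304), and aged against young controls differed by 0.29 (adjusted p = 0.231). Cd59a is on chromosome 2, as is Thbs1, and the genes are 14.0 Mb apart. The member Serping1 is on that chromosome too, 33.34 Mb from Thbs1, and was not called in the libraries labelled knockout against aged controls (limma adjusted p = 0.451).

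Start-site windows of the 3 members that fell in the libraries labelled knockout relative to aged controls are shown, to set genes that moved together side by side. RefSeq gave windows (GRCm38.p6, from 250 bases before to 50 after the annotated start) for 5 of the 8 members. They are at chr7:16259289-16259588 on the minus strand for C5ar1, chr6:124512371-124512670 on the plus strand for C1ra and chr2:104095551-104095850 on the plus strand for Cd59a. Capitals mark matches, on either strand, to 4 motifs of factors known to act on complement genes: the NF-kB motif (GGG and TTTCC with 2 bases between), the STAT motif TTCNNNGAA, the interferon response motif (GAAA and GAAA with 2 bases between) and the C/EBP motif TTGCNNAA.
C5ar1: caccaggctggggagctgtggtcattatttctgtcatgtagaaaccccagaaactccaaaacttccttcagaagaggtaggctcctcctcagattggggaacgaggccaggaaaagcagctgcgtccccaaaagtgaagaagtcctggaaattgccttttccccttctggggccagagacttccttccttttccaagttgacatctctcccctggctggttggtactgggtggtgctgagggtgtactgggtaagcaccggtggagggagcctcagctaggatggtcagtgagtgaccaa
C1ra: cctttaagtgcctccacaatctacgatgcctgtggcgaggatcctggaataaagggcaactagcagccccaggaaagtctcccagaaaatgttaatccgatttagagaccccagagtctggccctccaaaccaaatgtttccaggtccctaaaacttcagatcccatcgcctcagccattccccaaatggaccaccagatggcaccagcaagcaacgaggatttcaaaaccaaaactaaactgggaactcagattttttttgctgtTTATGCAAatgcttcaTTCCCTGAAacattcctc
Cd59a: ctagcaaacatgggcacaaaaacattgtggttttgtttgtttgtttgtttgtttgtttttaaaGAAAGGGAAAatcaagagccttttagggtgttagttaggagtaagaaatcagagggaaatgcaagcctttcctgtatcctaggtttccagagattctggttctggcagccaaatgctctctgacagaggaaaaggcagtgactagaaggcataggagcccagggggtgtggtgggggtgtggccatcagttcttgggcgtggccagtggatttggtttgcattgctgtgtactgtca
The C1ra window held a C/EBP match (TTATGCAA on the strand printed) and a STAT match (TTCCCTGAA), both after RefSeq's start site, and the Cd59a window held an interferon response match (GAAAGGGAAA) before it. The C5ar1 window held none of the 4, and no match was shared by the 3 genes. Among members that were not called, the C3 window, not printed, also held a C/EBP match (TTGCGAAA), and the Cd55 window held none of the 4. Among all 32851 mouse windows of the same length, 1.63% held the NF-kB motif, 8.30% the STAT motif, 3.44% the interferon response motif and 10.8% the C/EBP motif. No matches overlapped in these windows. For C5ar1 and C1ra, RefSeq's start lies inside the gene as GENCODE draws it, so these windows may miss other start sites. A match is a string of letters, not a measured binding site.

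Serping1 (ENSMUSG00000023224, chr2:84765387-84775444, minus strand) encodes C1 inhibitor, a secreted serpin that inactivates C1r and C1s. Its levels were 9.26, 5.21 and 5.07 FPKM in the libraries labelled knockout, 8.81, 7.98 and 6.82 FPKM in aged controls and 19.56, 15.35 and 13.27 FPKM in young controls. All 3 young controls exceeded the 6 libraries from aged mice, while both aged groups overlapped. Serping1 fell in aged controls relative to young controls, with a log2 fold change of -0.93 (95% interval -1.40 to -0.464; limma adjusted p = 0.0435) and a ratio of means of 0.490.

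The Serping1 call held without replicate 1 of the libraries labelled knockout (limma adjusted p = 0.0224) or without its replicate 2 (adjusted p = 0.0333). Neither library is in the groups compared, so the log2 fold change stayed at -0.93. The call was lost in the other 7 such fits (adjusted p = 0.0572 to 0.162). It was also lost after median-ratio scaling (adjusted p = 0.0533) or quantile normalization (adjusted p = 0.0549). The libraries labelled knockout differed from young controls by a larger log2 fold change of -1.21 that missed the threshold (limma adjusted p = 0.0826), and that passed without replicate 1 of the libraries labelled knockout (adjusted p = 0.0151). Against aged controls they differed by -0.28 (adjusted p = 0.451). The summed level of 12 stromal, osteoblast and fat cell markers was, like Serping1, highest in the young controls. It was 36.1 to 48.8 FPKM in the libraries labelled knockout, 41.4 to 50.2 FPKM in aged controls and 78.9 to 109.9 FPKM in young controls. Cxcl12 (41.94 to 49.15 FPKM), Ibsp (12.17 to 32.75 FPKM) and Adipoq (12.34 to 14.47 FPKM) made up most of the young control sum. The other markers were mixed: Lepr and Col1a2 were also higher in every young control than in every library from aged mice, while Pdgfra, Dcn and Lum overlapped. Of the 12 markers, 5 were under 1 FPKM in every library and 2 were listed at 0 in at least 1 library. Their part in the Serping1 result was not tested.

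Cd55 (ENSMUSG00000026399, chr1:130439027-130462744, minus strand) encodes decay-accelerating factor. Its levels were 51.24, 43.29 and 46.17 FPKM in the libraries labelled knockout, 52.95, 42.96 and 25.15 FPKM in aged controls and 46.97, 46.33 and 37.28 FPKM in young controls. The groups overlapped throughout, and aged control 3 was the lowest of all 9. The log2 difference was 0.27 between the libraries labelled knockout and aged controls (limma adjusted p = 0.493) and -0.16 between aged and young controls (adjusted p = 0.676). Without aged control 3 these became -0.03 and 0.14. An antisense gene, Gm16083, overlaps Cd55 and was at 0.45 to 1.43 FPKM. Whether counting used strand is not given in the sources used here.

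**Figure D3:**
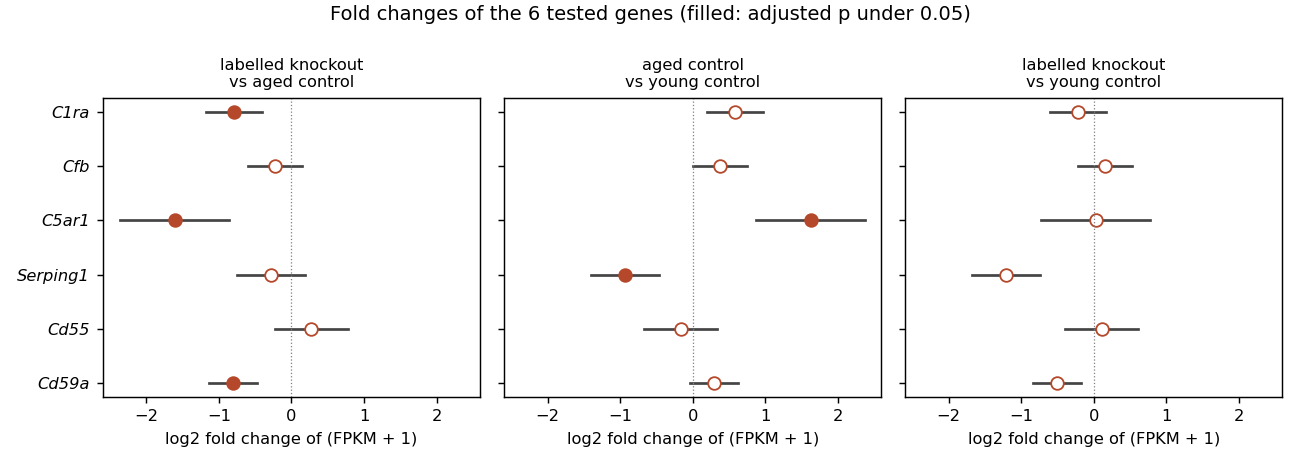
Log2 fold change of (FPKM + 1) with 95% interval for the 6 tested members in each comparison, filled where the limma adjusted p was under 0.05. C5ar1, C1ra and Cd59a fell in the libraries labelled knockout against aged controls, and C5ar1 rose and Serping1 fell in aged against young controls.

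The central and amplifying components were close to the filter. Cfb, the protease subunit of the alternative-arm C3 convertase, had 0.73, 1.43 and 0.88 FPKM in the libraries labelled knockout, 1.17, 1.36 and 1.45 FPKM in aged controls and 0.79, 0.90 and 0.67 FPKM in young controls. Aged controls were above young controls without overlap, but no Cfb comparison passed (limma adjusted p = 0.45 for the libraries labelled knockout against aged controls and 0.175 for aged against young controls). Cfb (ENSMUSG00000090231, chr17:34856374-34862518, minus strand) lies inside a read-through gene, Gm20547, listed at 0 in all 9 libraries, so its level is uncertain.

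C3, the component on which the arms converge, had 0.96, 0.58 and 0.43 FPKM in the libraries labelled knockout, 0.68, 1.04 and 0.89 FPKM in aged controls and 1.68, 1.35 and 0.91 FPKM in young controls. C4b, the mouse C4 gene, had 0.72, 0.45 and 0.34 FPKM in the libraries labelled knockout, 0.54, 1.11 and 1.0 FPKM in aged controls and 1.80, 1.02 and 1.53 FPKM in young controls. For both genes the young controls had the highest mean and the libraries labelled knockout the lowest. C3 (ENSMUSG00000024164, chr17:57203970-57228136, minus strand) and C4b (ENSMUSG00000073418, chr17:34728380-34743882, minus strand) are on the same chromosome. Neighbouring groups in that order overlapped for both, and in a fit without the filter neither passed in any comparison (limma adjusted p = 0.427 to 0.80). Near-identical copies of members were lower still: C4a, C1rb, Cd55b and Cd59b were each at 0.45 FPKM or less in every library.

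In the libraries labelled knockout against aged controls, 3 of the 6 tested members fell and none rose, where 4.79% of all tested genes were called, 2.78% higher and 2.01% lower. The median log2 fold change of the tested members was -0.54 there, against 0.00 over all genes. The members were chosen with earlier results of these data known, so figures set beside all genes describe them and cannot test them as a set. Between aged and young controls 1 member rose and 1 fell, where 3.99% of genes were called, 1.20% higher and 2.80% lower, and the medians were 0.34 for the tested members and -0.05 over all genes. That split of all genes moved with scaling, being 141 higher and 330 lower as tested and 215 higher and 200 lower after median-ratio scaling. The 3 falls were each lost without the filter on low values (adjusted p = 0.0816 to 0.129) and in a fit on the 6 aged libraries alone (adjusted p = 0.0797 to 0.0987), and the aged against young calls were lost without the filter (adjusted p = 0.131 and 0.143). In the libraries labelled knockout against young controls limma called none of the 6 members, where 0.212% of genes were called, 0.0848% higher and 0.127% lower. At an unadjusted p under 0.05 there were 2 members, where 9.27% of all genes were, and voom on recovered fragments called 1 member and 21 of all genes. Without overlap between groups were 23.2% of all tested genes in the first comparison, 35.7% in aged against young controls and 22.4% in the last, so separation of 3 libraries from 3 was common.

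A list of 51 other complement genes, also chosen with earlier results of these data known, set these members in context. All 51 were in the table and 17 were tested. Among them limma called 1 gene, Ptx3, the long pentraxin that binds C1q. Ptx3 had 11.49, 8.98 and 6.24 FPKM in the libraries labelled knockout, 2.56, 3.81 and 3.88 FPKM in aged controls and 6.73, 7.37 and 7.74 FPKM in young controls. The aged controls were the 3 lowest libraries, the reverse of C5ar1. Ptx3 rose in the libraries labelled knockout relative to aged controls by 1.14 on the log2 scale (limma adjusted p = 0.0126), a call kept in all 9 fits that left out 1 library but lost without the filter (adjusted p = 0.0719) and on the 6 aged libraries alone (adjusted p = 0.0588). It fell in aged relative to young controls by 0.92 on the log2 scale (limma adjusted p = 0.0401). That call was kept in 3 of 9 such fits, those without 1 library labelled knockout, where the fold change could not move. Without a control the limma adjusted p was up to 0.141. The median log2 fold change of the 17 was -0.35 in the libraries labelled knockout against aged controls and 0.12 in aged against young controls, beside 0.00 and -0.05 over all genes. In the libraries labelled knockout against young controls limma called none of the 17, with 2 at an unadjusted p under 0.05 (9.27% of all genes) and none called by voom. At that unadjusted limit there were 9 of the 17 in the libraries labelled knockout against aged controls (24.1% of all genes) and 2 in aged against young controls (27.7% of all genes).

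Other well-expressed genes of the list did not pass the test in any comparison. Thbd, the gene of thrombomodulin, an endothelial anticoagulant receptor that also regulates complement, was the highest at 565.7 ± 24.6 FPKM in the libraries labelled knockout, 686.5 ± 110.2 FPKM in aged controls and 615.8 ± 21.6 FPKM in young controls (SD, n = 3 each). Cd93, which encodes a C-type lectin-like receptor of endothelium, ranged from 72.79 to 103.09 FPKM over the 9 libraries. Cr1l, the mouse Crry gene for a membrane inhibitor of C3 convertases, ranged only from 22.19 to 26.48 FPKM. The secreted protease factor D, from Cfd, had 79.48, 72.20 and 52.49 FPKM in the libraries labelled knockout, 134.31, 40.94 and 234.53 FPKM in aged controls and 88.35, 98.15 and 147.90 FPKM in young controls, so the spread among aged controls covered both other groups.

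C1qb, a chain of C1q and mostly a product of macrophages, had 3.48, 11.24 and 6.65 FPKM in the libraries labelled knockout, 13.98, 11.03 and 14.77 FPKM in aged controls and 6.31, 7.72 and 15.01 FPKM in young controls. Its groups overlapped and it did not pass (limma adjusted p = 0.161 for the libraries labelled knockout against aged controls). Another C1q chain gene, C1qc, named after its values were seen, had 1.09, 4.09 and 2.13 FPKM in the libraries labelled knockout, 6.03, 4.68 and 9.69 FPKM in aged controls and 2.85, 2.67 and 6.44 FPKM in young controls. The libraries labelled knockout were all below the aged controls, with a log2 fold change of -1.23 and a ratio of means of 0.358 that missed the threshold (limma adjusted p = 0.0873). Colec12, which encodes a scavenger collectin, lay just outside the threshold in that comparison (log2 fold change -0.40, limma adjusted p = 0.0502). Voom on recovered fragments called it there (voom adjusted p = 0.0414). Susd4, the gene of a membrane complement inhibitor, had a log2 fold change of 0.99 there (adjusted p = 0.153) and -0.95 in aged against young controls (adjusted p = 0.144). For Clu, the gene of clusterin, a fluid-phase inhibitor of the attack complex, the change in the libraries labelled knockout was -0.62 (adjusted p = 0.159). C1qbp, a mostly mitochondrial protein that binds C1q, gave -0.18 (adjusted p = 0.349).

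**Figure D4:**
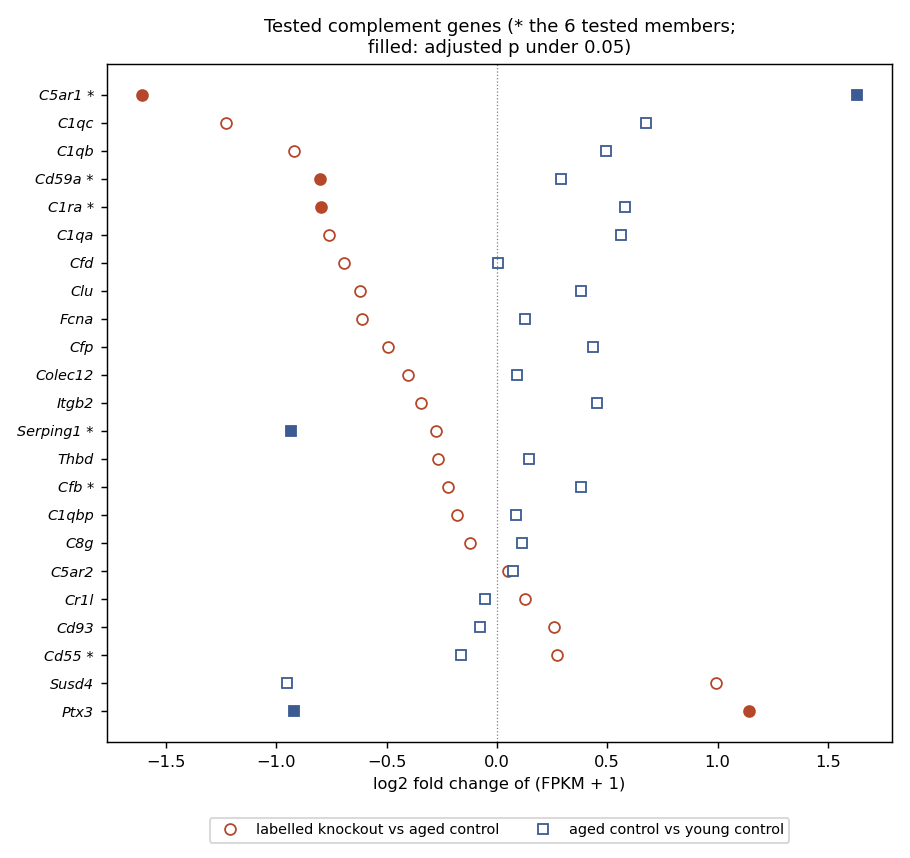
Log2 fold change of (FPKM + 1) for the 6 tested members (starred) and the 17 other tested complement genes, in the libraries labelled knockout against aged controls (circles) and in aged against young controls (squares), filled where the adjusted p was under 0.05. The comparisons share the aged controls, so mirrored positions are built into the plot; C5ar1 and Ptx3 lie at its ends with -1.61 and 1.14 in the first comparison.

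Markers of blood cells were set beside C5ar1 because the receptor is abundant on myeloid cells. The summed level of 12 neutrophil markers was 33.7, 108.0 and 116.5 FPKM in the libraries labelled knockout, 13.3, 92.6 and 288.4 FPKM in aged controls and 68.5, 6.8 and 140.4 FPKM in young controls. Aged control 1, with C5ar1 at 175.60 FPKM, had a neutrophil sum of 13.3 FPKM, and young control 3, with C5ar1 at 45.26 FPKM, had 140.4 FPKM. Ly6g, a defining neutrophil marker, was at 0.65 FPKM or less in every library, and 3 of the 12 were under 1 FPKM throughout. The part of neutrophils in the C5ar1 result was not tested.

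Monocyte and macrophage markers moved partly with C5ar1. The sum of the 13 that averaged under 100 FPKM, a limit chosen after seeing the data, was 69.5, 99.1 and 82.2 FPKM in the libraries labelled knockout, 117.8, 101.0 and 123.9 FPKM in aged controls and 75.3, 83.6 and 136.8 FPKM in young controls. All 3 aged controls exceeded the libraries labelled knockout, while young control 3 was the highest of all. Of the 13, 12 had a lower mean in the libraries labelled knockout than in aged controls and 9 a higher mean in aged than in young controls. In 8 the highest library labelled knockout was replicate 2, as for C5ar1, with Itgam counted although its replicates 2 and 3 tied at 0.09 FPKM. How many of all genes were highest in that replicate was not counted. C1qc, Csf1r and Itgam were below every aged control in all 3 libraries labelled knockout, and 0 of the 13 were above them in all 3. Of all tested genes, 23.2% were without overlap in that comparison, so such separation was common. Itgam was at 0.34 FPKM or less throughout, and 5 of the 13 were under 1 FPKM in all 9 libraries. Mrc1, which sinusoidal endothelium also makes, was at 106.84 to 182.16 FPKM. The part of these cells in the C5ar1 result was not tested. The sum of 4 pan-leukocyte markers was 3.9 to 7.5 FPKM in the libraries labelled knockout, 7.3 to 9.7 FPKM in aged controls and 3.5 to 8.9 FPKM in young controls, with Ptprc, the gene of CD45, at 0.03 to 0.13 FPKM. The sum of 7 B-lineage and plasma cell markers was 4.4, 1784.8 and 532.2 FPKM in the libraries labelled knockout, 3013.5, 1581.9 and 476.7 FPKM in aged controls and 12.9, 5.9 and 516.7 FPKM in young controls. Among the libraries labelled knockout, C5ar1 and this sum were both highest in replicate 2, and both were high in aged controls 1 and 2. The libraries of replicate 3 had like sums in the 3 groups, with C5ar1 at 32.23 FPKM in the one labelled knockout, 116.58 FPKM in the aged control and 45.26 FPKM in the young control. The part of B-lineage cells in the result was not tested. Without replicate 2 of the libraries labelled knockout, C5ar1 fell relative to aged controls by 2.07 on the log2 scale (limma adjusted p = 0.000892).

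**Figure D5:**
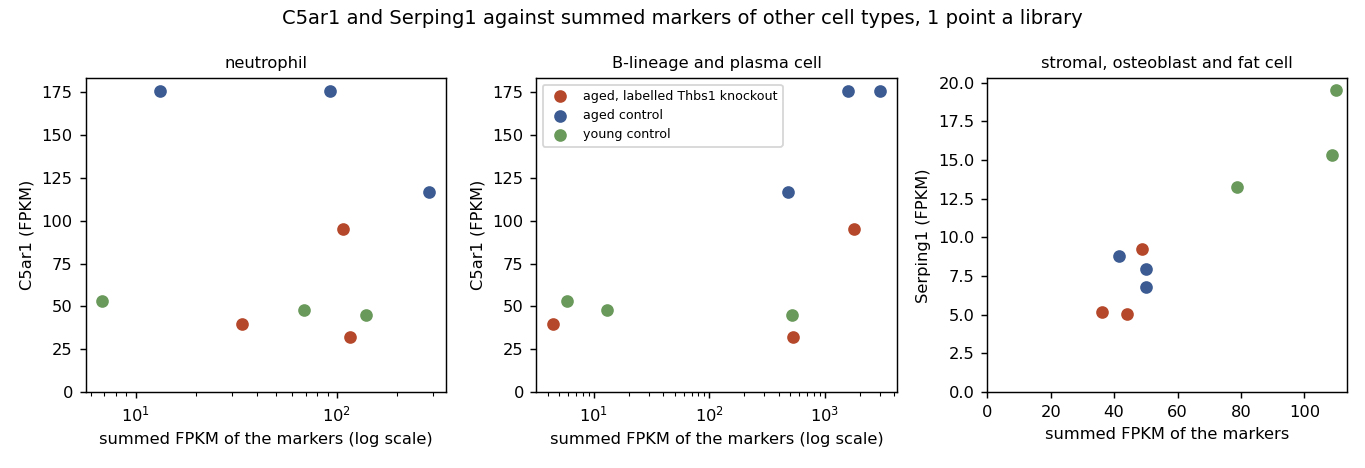
Level of a member against the summed FPKM of a marker list in each of the 9 libraries, coloured by group. The stromal sum was 78.9 to 109.9 FPKM in the young controls, where Serping1 was highest, and at most 50.2 FPKM elsewhere. The aged controls had neutrophil sums of 13.3 to 288.4 FPKM and B-lineage sums of 476.7 to 3013.5 FPKM.

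Genes most like each tested member over the 9 libraries were found by Pearson's r of log2(FPKM + 1) among 6944 genes averaging at least 5 FPKM. The 9 libraries share 3 groups, so these values describe likeness of pattern. Nearest to C5ar1 were Dnase1l3 (r = 0.990), which encodes a secreted DNase, Tmem176a (r = 0.990), a membrane protein gene, and Ctsh (r = 0.982), the gene of the lysosomal protease cathepsin H. The nearest to C1ra were Hint2 (r = 0.962), Zfp580 and Glo1. Cd59a was closest to Cpped1 (r = 0.978), Nxt1 and Arl8a, and Serping1 to Chp1 (r = 0.939), Pwwp2a and Thrap3. For Cd55 the nearest were Cmc4 (r = 0.959), Erp44 and Tmem39a, and for Cfb they were Tead2 (r = 0.964), B3gnt3 and Ap2m1. None of these 18 genes was itself on the complement list.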

How the data were processed

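RNA of sorted marrow endothelial cells was measured in 9 libraries, grouped and numbered by the labels. The authors deposited FPKM values for 52183 genes. The submitters' processing notes name FastQC 0.11.5, STAR and edgeR and the builds GRCm38 and mm10. How fragments were counted, and whether by strand, is not given in the sources used here, and reads shared by overlapping genes or copies could move a value. Depth was estimated from genes of 60 to 400 bases, and 99.6% to 99.8% of their values were whole fragments within a tolerance of 0.1.

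R 4.3.3 with limma 3.58.1 fitted a mean per group to log2(FPKM + 1) over all 9 libraries, with a trended prior, for genes averaging at least 1 FPKM, and p-values were adjusted over all 11796 genes by Benjamini-Hochberg. Alternatives were other pseudocounts and filters, median-ratio and quantile scaling, fits on the compared groups alone, a replicate block and leaving out each library. A voom fit on fragments recovered from the FPKM was chosen after seeing the data. The fits were tested on simulated data. Gene coordinates are from the GENCODE annotation of GRCm38. Other complement genes were named if called in a comparison, if copies of a member, or with a mean of at least 5 FPKM, and the 3 genes most like each tested member were named. Members and lists were chosen with earlier results of these data known. The summed level of all monocyte and macrophage markers is not reported here.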

Additional observations from a re-analysis of the deposited data

How the results depend on the processing

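With 3 libraries a group many calls depended on the fit, and C3, C4b and Cfb were too low for firm statements. C5ar1, C1ra, Cd59a, Serping1, Cfb and Ptx3 kept their sign under all alternatives in both comparisons that involve aged controls. Cfb had no value under a filter at 5 FPKM. Many of these alternatives could not change a sign. Other filters, the compared groups alone, the replicate block and leaving out a library outside the comparison returned the same log2 fold change. C5ar1, C1ra, Cd59a and Ptx3 had no overlap between the compared groups. For them, neither another pseudocount nor leaving out any library could reverse the sign. The kept signs therefore say little about how firm the directions are.

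For the libraries labelled knockout against aged controls, no filter on low values gave 146 genes, 0 members and 0 other complement genes called, with C5ar1 at -1.61 (limma adjusted p = 0.129), C1ra at -0.80 (0.124) and Cd59a at -0.80 (0.0816). The compared groups alone gave 149 genes, 0 members and 0 other complement genes, with C5ar1 at -1.61 (0.0987), C1ra at -0.80 (0.0899) and Cd59a at -0.80 (0.0797). A filter at 5 FPKM, median-ratio scaling, quantile normalization and voom each called 2 other complement genes. Under voom these were Ptx3 (voom adjusted p = 0.0117) and Colec12 (0.0414). Leaving out 1 library gave 197 to 1159 genes, 0 to 3 members and 1 to 7 other complement genes, with C5ar1 at -2.07 to -1.30, C1ra at -0.97 to -0.62 and Cd59a at -0.92 to -0.65. Cd55 was at -0.03 to 0.50.

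For aged against young controls, no filter gave 39 genes, 0 members and 0 other complement genes, with C5ar1 at 1.63 (0.131) and Serping1 at -0.93 (0.143). Serping1 was at -0.88 under median-ratio scaling and -0.88 under quantile normalization, each with 1 member called, and quantile normalization called 0 other complement genes. The compared groups alone gave 716 genes and called C1ra at 0.58 (0.0431). Leaving out 1 library gave 5 to 1039 genes, 0 to 3 members and 0 to 1 other complement genes, with C5ar1 at 1.53 to 1.83, Serping1 at -1.05 to -0.79, C1ra at 0.51 to 0.71 and Cd55 at -0.39 to 0.14.

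For the libraries labelled knockout against young controls, no filter gave 15 genes and a filter at 5 FPKM gave 12. Voom called 1 member, Serping1, at -1.34 (0.0476). Leaving out 1 library gave 11 to 31 genes and 0 to 1 members, with Serping1 at -1.46 to -1.07 and C5ar1 at -0.44 to 0.33.

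Deviations of each library from its own group mean, over the tested genes, were correlated between libraries of different groups. Same-numbered libraries gave -0.129 to 0.124 over 9 pairs, with 1 pair over 0.1. Pairs with different numbers gave -0.213 to 0.173. The labels do not say whether same-numbered libraries shared a sort or preparation, and a correlation over all these genes cannot decide it. With a replicate block, aged against young controls gave 183 genes and 0 other complement genes, and the libraries labelled knockout against young controls gave 1 member, Serping1, at -1.21 (0.0128). The cause of these changes was not tested.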

Other observations

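Many genes of the late and lectin steps of complement were at or near 0, with exceptions. C8a, which encodes a chain of the attack complex, and Mbl2, which encodes a mannose-binding lectin, were listed at 0 in all 9 libraries. C9, which encodes the pore-forming subunit, was at 0.13 FPKM or less, and Hc, the mouse C5 gene, at 0.27 FPKM or less. C8g, which encodes another chain of the attack complex, was at 1.65 to 3.6 FPKM, and the ficolin genes Fcna and Fcnb were at 0.84 to 2.46 FPKM and 0.00 to 1.92 FPKM. C8g, Fcna and Fcnb are named after their values were seen, and neither C8g nor Fcna passed the test in any comparison. Fcna was at 0.84 to 1.18 FPKM in the libraries labelled knockout, 1.40 to 2.46 FPKM in aged controls and 1.30 to 2.04 FPKM in young controls. Its log2 fold change in the libraries labelled knockout against aged controls was -0.61 (limma adjusted p = 0.086). C3ar1, the gene of the C3a receptor, had 0.30, 0.87 and 0.33 FPKM in the libraries labelled knockout, 1.17, 0.22 and 0.65 FPKM in aged controls and 0.38, 0.14 and 0.74 FPKM in young controls, so its groups overlapped at low levels.

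C1rl, named after its values were seen, encodes a C1r-like protease. It had 0.31, 0.32 and 0.39 FPKM in the libraries labelled knockout, 1.54, 1.59 and 1.19 FPKM in aged controls and 0.71, 0.25 and 0.33 FPKM in young controls. As with C1ra, every aged control was above every other library, but with a mean of 0.737 FPKM it was below the filter. In the fit without the filter C1rl missed the threshold, with a log2 fold change of -0.86 in the libraries labelled knockout against aged controls (limma adjusted p = 0.0877) and 0.78 in aged against young controls (adjusted p = 0.122). C1s1, the gene of the protease that C1r activates, had 0.95, 0.29 and 0.26 FPKM in the libraries labelled knockout, 0.42, 0.38 and 0.29 FPKM in aged controls and 0.78, 1.01 and 0.80 FPKM in young controls, an order unlike that of C1ra.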
